A study of Mus musculus with 30 samples.

Results

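Snai1, Snai2, Twist1, Twist2, Zeb1 and Zeb2 are the 6 transcription factors most often used to mark a transition toward a mesenchymal state. They were chosen by name, and all 6 were found among the 21847 protein-coding genes of the deposited RNA-seq files. The study compared mouse brain endothelial cells (ECs) taken directly from the animal with ECs grown in short-term culture, and asked whether stabilized beta-catenin holds cultured ECs in their brain state. Gene expression was measured by RNA-seq in 14 libraries and open chromatin by ATAC-seq, which maps DNA accessible to a transposase, in 10 libraries. The cerebrum-only RNA-seq and ATAC-seq samples were not analysed here.

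Acute ECs (2 RNA-seq and 2 ATAC-seq libraries) were GFP-positive cells sorted from the brains of adult male Tie2-GFP mice, in which an endothelial promoter drives GFP, and GFP-negative cells of the same sort (2 RNA-seq libraries) held the other brain cells. The study describes its adult brain EC data as cerebrum and cerebellum data put together, the cerebellum part published earlier. WT cultures (6 RNA-seq and 6 ATAC-seq libraries) were primary brain ECs of adult males, pooled from several brains, selected with puromycin and grown for 8 days in serum-containing EC growth medium on collagen. Replicates 1 and 2 were C57BL/6J cells isolated by papain digestion (method A), and replicates 3 to 6 were Ctnnb1flex3/+;Tie2-GFP cells isolated by mechanical homogenization followed by collagenase and dispase (method B). This assignment follows the methods of the study. A figure legend of the study instead gives method B only to the 2 RNA-seq samples from another facility, and method A to the other 4. Stabilized cultures (4 RNA-seq and 2 ATAC-seq libraries) came from Ctnnb1flex3/+;Pdgfb-CreER;Tie2-GFP mice, in which a Cre active in ECs removes the exon of Ctnnb1 that targets beta-catenin for degradation, with method A for RNA-seq replicates 1 and 2 and method B for replicates 3 and 4 and for ATAC-seq. Mice of the stabilized group and the Ctnnb1flex3/+;Tie2-GFP controls had received 4-hydroxytamoxifen early after birth. Culture replicates were wells, 2 to an experiment, so p-values do not measure the spread between single animals. Tests within an isolation method or among the WT pairs rest on the spread between wells of a pair. Tests that pool the cultures also take in differences between experiments, and the acute libraries were sorts and not wells.

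Snail family proteins (Snai1 and Snai2) and the Zeb proteins are zinc finger repressors that bind E-box sequences in the promoters of junction genes such as that of E-cadherin, while the Twist proteins are basic helix-loop-helix factors that act as dimers with E proteins. TGF-beta, Notch and Wnt signals can induce them, and Gsk3b marks Snai1 for degradation. In ECs the same factors have been used as markers of endothelial-to-mesenchymal transition, in which cells gain contractile and matrix genes, and Snai2 and Zeb1 are also known from developing and sprouting vessels.

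Total estimated counts lay between 24284843 and 94686456 per RNA-seq library. Ctnnb1, the targeted gene, stood at 881 and 952 TPM (a transcript abundance scaled by length and library total) in acute ECs, 230 to 747 in WT cultures and 306 to 808 in stabilized cultures, and gene-level counts do not show the exon deletion. Axin2, a target of beta-catenin signaling, was listed at 51.8 and 47.0 TPM in acute ECs, 0.0998 to 0.269 in WT cultures and 0.974 to 1.86 in stabilized cultures. The 12 endothelial markers summed to 4098 to 4880 TPM in acute ECs, 105 to 116 in GFP-negative cells, 2376 to 5857 in WT cultures and 2627 to 7594 in stabilized cultures. In WT cultures against acute ECs, 1 of the 12 was higher and 4 were lower by edgeR. Over all genes tested, 23.9% were higher and 21.3% lower. Mean Flt1 went from 1154 TPM in acute ECs to 64.0 in WT cultures, and mean Emcn went from 139 to 1397. The 10 pericyte markers summed to 553 to 573 TPM in acute ECs and to 5.70 to 14.1 in WT cultures, so pericyte RNA present in the acute sort was scarce in the cultures. The 7 smooth muscle markers, which include Acta2, Tagln and Cnn1 of the mesenchymal list used below, summed to 217 to 236 TPM in acute ECs. In WT cultures they summed to 504 to 3079 TPM. By edgeR 4 of the 7 were higher in WT cultures and 1 was lower. Myh11 went from a mean of 22.3 TPM in acute ECs to 1.68 in WT cultures. The 10 fibroblast markers summed to 15.7 to 18.1 TPM in acute ECs and 8.54 to 53.4 in WT cultures. Of the 8 tested, Col1a1 (log2 4.22, adjusted p = 0.00106 by edgeR) and Mfap5 (0 in both acute libraries, 1.18 to 8.40 TPM in WT cultures) were higher in culture and Fap was lower, and Dpt was listed at 0 in every culture. Acute libraries were single-end and culture libraries paired-end, so culture and read type cannot be told apart.

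Zeb1 led the 6 factors in acute ECs and in both kinds of culture, and Zeb2 led them in GFP-negative cells. The levels are gene totals in TPM, which for the Zeb genes include short transcripts. Means in acute ECs were 212 ± 174 for Zeb1 (SD, n = 2), 13.5 ± 5.57 for Zeb2, 7.79 ± 3.99 for Snai2, 0.167 ± 0.0249 for Twist1, 0.0733 ± 0.0541 for Snai1 and 0.00422 ± 0.00596 for Twist2. Zeb2 and Snai2 overlapped in that order, and no other neighbours did. In WT cultures the order was Zeb1 at 28.4 ± 6.34 (SD, n = 6), Zeb2 at 8.16 ± 2.38, Snai2 at 3.57 ± 3.58, Snai1 at 2.05 ± 1.88, Twist1 at 1.57 ± 1.15 and Twist2 at 0.862 ± 1.09. Only Zeb1 was separate from its neighbour there, and the ranges of Zeb2, Snai2, Snai1, Twist1 and Twist2 each overlapped the next. In stabilized cultures Zeb1 (45.2 ± 23.3, SD, n = 4) and Zeb2 (15.5 ± 7.62) were separate from each other and from the other 4 members, whose ranges overlapped. In GFP-negative cells Zeb2 stood at 95.03 ± 15.1 (SD, n = 2), Zeb1 at 36.6 ± 10.6 and Twist1 at 1.25 ± 0.228, and Snai2 (0.671 ± 0.464) overlapped Snai1 (0.573 ± 0.160), both above Twist2 (0.168 ± 0.0763). On coding transcripts of at least 3 kb only, acute ECs averaged 17.0 TPM for Zeb1 and 3.35 for Zeb2, which puts Zeb2 below Snai2. GFP-negative cells averaged 27.0 for Zeb2 and 7.31 for Zeb1 on that measure, and the Zeb1 and Zeb2 ranges overlapped in both kinds of culture.

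**Figure D1:**
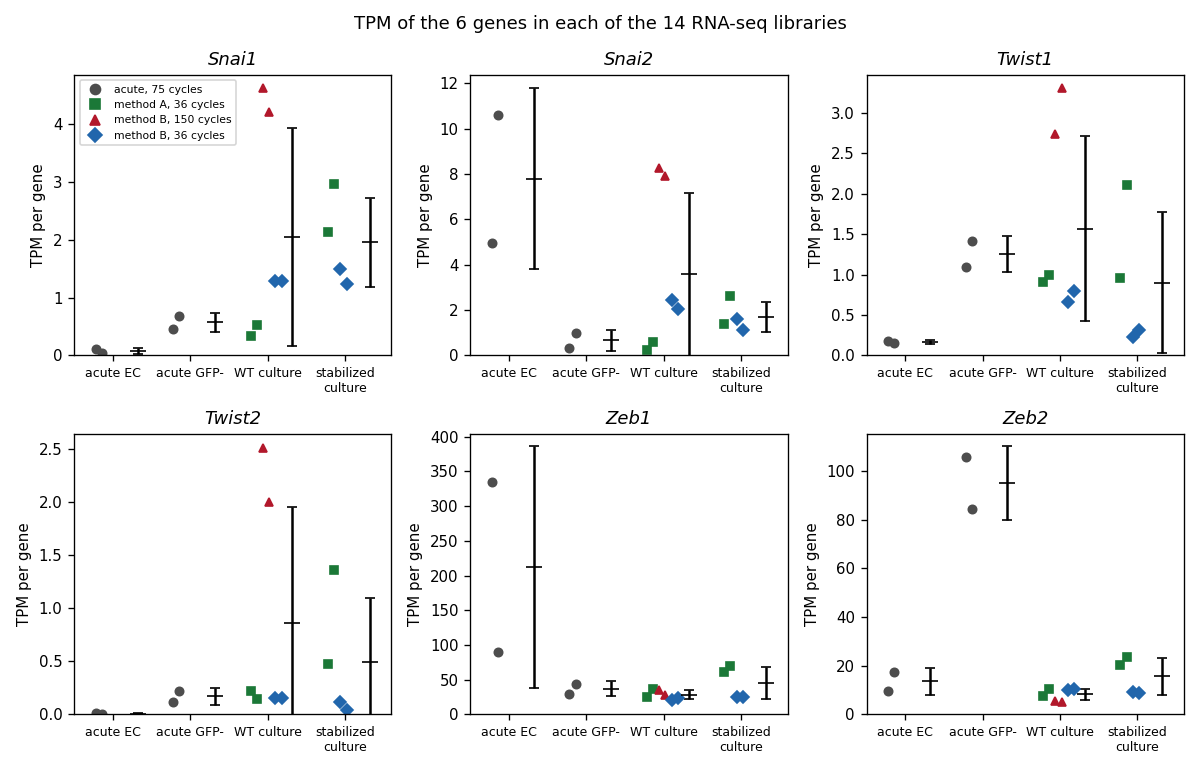
TPM of each of the 6 genes (linear axis, 1 panel a gene) in the 14 RNA-seq libraries by group; points are libraries, their shape and colour give the isolation method and number of cycles, and the bar beside each group is the mean ± SD. Snai1, Twist1 and Twist2 of every culture lie above both acute EC libraries, Zeb1 of every culture lies below both, and the 2 WT libraries sequenced for 150 cycles carry the highest Snai1, Snai2, Twist1 and Twist2 of the cultures.

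The DNA on which the chromatin results turn is shown for the promoter of Snai1, whose start was open where its RNA was near 0, for the promoter and the culture-gained regions of Twist2, which had no open region in acute ECs, and for an intronic region of Zeb2 open in acute and cultured ECs. They are read from RefSeq sequence of GRCm38.p6, with the 250 bases before a start or the 300 bases around the summit of the highest peak of a region, and 4 of the 6 members had a promoter entry. Capitals mark matches on either strand to CAGGTG (an E-box bound by Snail and Zeb proteins), TGANTCA (AP-1), ACAGGAA (ETS) and GGAATG (TEAD), motifs chosen after the regions were known; the ETS and TEAD letters can overlap.
Snai1 promoter, chr2:167537945-167538194, plus strand: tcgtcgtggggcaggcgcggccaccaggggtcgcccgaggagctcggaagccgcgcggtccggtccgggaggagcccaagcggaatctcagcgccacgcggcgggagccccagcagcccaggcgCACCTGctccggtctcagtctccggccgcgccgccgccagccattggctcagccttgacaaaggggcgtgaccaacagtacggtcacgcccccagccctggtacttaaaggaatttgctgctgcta
Twist2 promoter, chr1:91801211-91801460, plus strand: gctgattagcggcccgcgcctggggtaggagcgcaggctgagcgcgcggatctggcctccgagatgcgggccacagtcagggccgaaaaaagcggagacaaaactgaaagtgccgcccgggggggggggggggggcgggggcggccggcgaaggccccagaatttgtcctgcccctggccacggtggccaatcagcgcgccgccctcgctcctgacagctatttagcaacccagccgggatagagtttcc
Twist2 first gained region, chr1:91816710-91817009, plus strand: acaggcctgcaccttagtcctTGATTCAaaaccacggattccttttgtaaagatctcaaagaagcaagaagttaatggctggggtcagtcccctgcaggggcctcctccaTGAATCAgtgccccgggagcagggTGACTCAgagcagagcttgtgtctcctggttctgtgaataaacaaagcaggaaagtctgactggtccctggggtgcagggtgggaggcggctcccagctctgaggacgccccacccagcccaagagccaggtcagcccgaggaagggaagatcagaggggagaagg
Twist2 second gained region, chr1:91823475-91823774, plus strand: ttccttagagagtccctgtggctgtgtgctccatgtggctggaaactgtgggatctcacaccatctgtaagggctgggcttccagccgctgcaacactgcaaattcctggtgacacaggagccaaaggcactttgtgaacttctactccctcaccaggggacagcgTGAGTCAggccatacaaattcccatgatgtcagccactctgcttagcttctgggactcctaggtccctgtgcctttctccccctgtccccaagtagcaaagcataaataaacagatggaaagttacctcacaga
Zeb2 kept region, chr2:45019878-45020177, minus strand: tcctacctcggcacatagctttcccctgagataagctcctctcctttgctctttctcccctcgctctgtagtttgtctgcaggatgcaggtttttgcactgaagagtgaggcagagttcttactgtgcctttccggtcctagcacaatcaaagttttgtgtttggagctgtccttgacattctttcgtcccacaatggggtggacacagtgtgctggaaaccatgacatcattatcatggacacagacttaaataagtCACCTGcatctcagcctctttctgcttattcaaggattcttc

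Culture against the acute state was tested on counts between the 6 WT cultures and the 2 acute EC libraries, with edgeR's quasi-likelihood test and Benjamini-Hochberg adjustment over 13798 genes. Snai1, Twist1 and Twist2 were higher in culture, Zeb1 was lower, and Snai2 and Zeb2 did not pass an adjusted p of 0.05. That is 3 of 6 members higher and 1 of 6 lower, against 23.9% and 21.3% of all genes tested. The median log2 fold change of the members was 0.85, beside 0.10 over all genes. With a minimum of 5 TPM in every library of the higher group and a 2-fold change added to the rule, Zeb1 was the only member called, where 13.5% of genes were called higher and 10.2% lower. Snai1, Twist1 and Twist2 stayed under 5 TPM in every culture. The 6 wells come from 3 pairs, and with the wells of each pair summed Twist2 alone passed (adjusted p = 0.0463), while Snai1 (adjusted p = 0.0700), Twist1 (0.116) and Zeb1 (0.0536) did not.

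Snai1, the founding repressor of the Snail family, was near 0 in acute ECs, with 20 and 3 counts, or 0.112 and 0.0350 TPM. In WT cultures it was 0.341 and 0.526 TPM in replicates 1 and 2, 4.62 and 4.21 in replicates 3 and 4, and 1.28 and 1.29 in replicates 5 and 6. Every culture was above both acute libraries, and the lowest cultures were those of method A. The log2 fold change was 3.31 (SE 1.002, adjusted p = 0.0249), and the ratio of counts per protein-coding count was 11.7 (95% exact interval 7.69 to 18.6, counting error only). The call was lost in 6 alternative settings. These included leaving out acute replicate 2, which gave a log2 change of 2.58. Method A cultures only gave 1.74 (adjusted p = 0.194) and 36-cycle cultures only gave 2.94 (adjusted p = 0.0560). Fewer cells of a type and less RNA per cell cannot be told apart in such bulk samples.

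Snai2, its paralog, was lower than in acute ECs in 4 of the 6 cultures and at the acute level in the others. It was 4.98 and 10.6 TPM in acute ECs (835 and 870 counts), 0.237 and 0.583 in WT replicates 1 and 2, 8.24 and 7.90 in replicates 3 and 4, and 2.42 and 2.06 in replicates 5 and 6. Replicates 3 and 4 lay inside the acute range and the other 4 cultures below it. The log2 fold change over all 6 was -1.45 (SE 0.92, adjusted p = 0.223). Taking the pairs of wells separately, it was -4.32 (adjusted p = 0.00544) for method A, -1.66 (adjusted p = 0.0208) for method B at 36 cycles and -0.46 (adjusted p = 0.264) for the 150-cycle pair. The pericyte markers fell with it, and their part in the difference was not tested. GFP-negative cells, whose pericyte markers summed to 412 to 797 TPM, held 0.343 and 0.999 TPM of Snai2.

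Twist1 was 0.184 and 0.149 TPM in acute ECs, from 19 and 8 counts. The WT cultures held 0.905, 0.999, 2.74, 3.31, 0.656 and 0.799 TPM in replicates 1 to 6, all above both acute libraries. The log2 fold change was 2.26 (SE 0.59, adjusted p = 0.0137), and the call was lost in 5 alternative settings. These included leaving out acute replicate 2 (log2 1.88) and method B 36-cycle cultures only (2.03, adjusted p = 0.0566). Twist2 was listed with 1 count and 0 counts in acute ECs. WT replicates 1 to 6 held Twist2 at 0.218, 0.144, 2.51, 1.997, 0.149 and 0.156 TPM. Its adjusted p was 0.0180, and the ratio of counts per protein-coding count was 63.8 (95% exact interval 11.2 to 2544). That call rested on both acute libraries, with an adjusted p of 0.0609 or 0.0961 when either was left out, and 4 of the 6 cultures held at most 11 counts.

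Both Zeb genes are long and carry many annotated transcripts, so gene totals and full-length transcripts were read separately. Gene-level Zeb1 was 335 and 89.1 TPM in acute ECs and 25.5, 37.0, 35.0, 28.1, 21.1 and 23.8 TPM in WT replicates 1 to 6, with every culture below both acute libraries. The log2 fold change of counts was -1.77 (SE 0.42, adjusted p = 0.00870), -3.66 (adjusted p = 0.000900) with an offset for transcript length and -1.40 (adjusted p = 0.0729) without acute replicate 1. Much of the acute TPM came from a 266-base transcript annotated for nonsense-mediated decay, Zeb1-212, which made up 75.7% and 35.0% of Zeb1 TPM in the 2 acute libraries. The full-length coding transcript Zeb1-201 (5801 bases) was 16.6 and 17.5 TPM in acute ECs and 11.3 ± 3.40 (SD, n = 6; range 8.26 to 17.7) in WT cultures. WT replicate 2 (17.7) was at the acute level, and the other 5 cultures (8.26 to 11.6) lay below both acute libraries. It held 77.3 to 83.3% of the Zeb1 counts of acute ECs. Counted on protein-coding transcripts of at least 3 kb only, an alternative chosen after the data were seen, the log2 fold change of Zeb1 was -1.74 (SE 0.52, adjusted p = 0.0232).

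Zeb2, the close relative of Zeb1, was 9.55 and 17.4 TPM in acute ECs and 7.63, 10.2, 5.57, 5.18, 10.2 and 10.3 TPM in WT replicates 1 to 6. The groups overlapped, and the log2 fold change was -0.55 (SE 0.65, adjusted p = 0.515). The 150-cycle pair alone gave -2.21 (adjusted p = 0.0148). Short transcripts weighed on the acute values here too. A transcript of 240 bases was listed at 4.44 TPM in acute replicate 1 and one of 584 bases at 12.8 TPM in acute replicate 2, and both were listed at 0 in every culture. The 6 long coding transcripts of Zeb2 summed to 3.78 and 2.91 TPM in acute ECs and to 7.31 ± 2.24 (SD, n = 6; range 5.09 to 9.95) in WT cultures, which did not overlap. On counts of those transcripts the log2 fold change was -0.43 (adjusted p = 0.628), so TPM and counts pointed opposite ways. Read type moved with these groups, and its part was not tested. Genes overlapping Zeb1, Zeb2 and Twist2 on the opposite strand (Gm10125, Zeb2os and Gm29100) cannot be told apart from them where reads carry no strand.

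**Figure D2:**
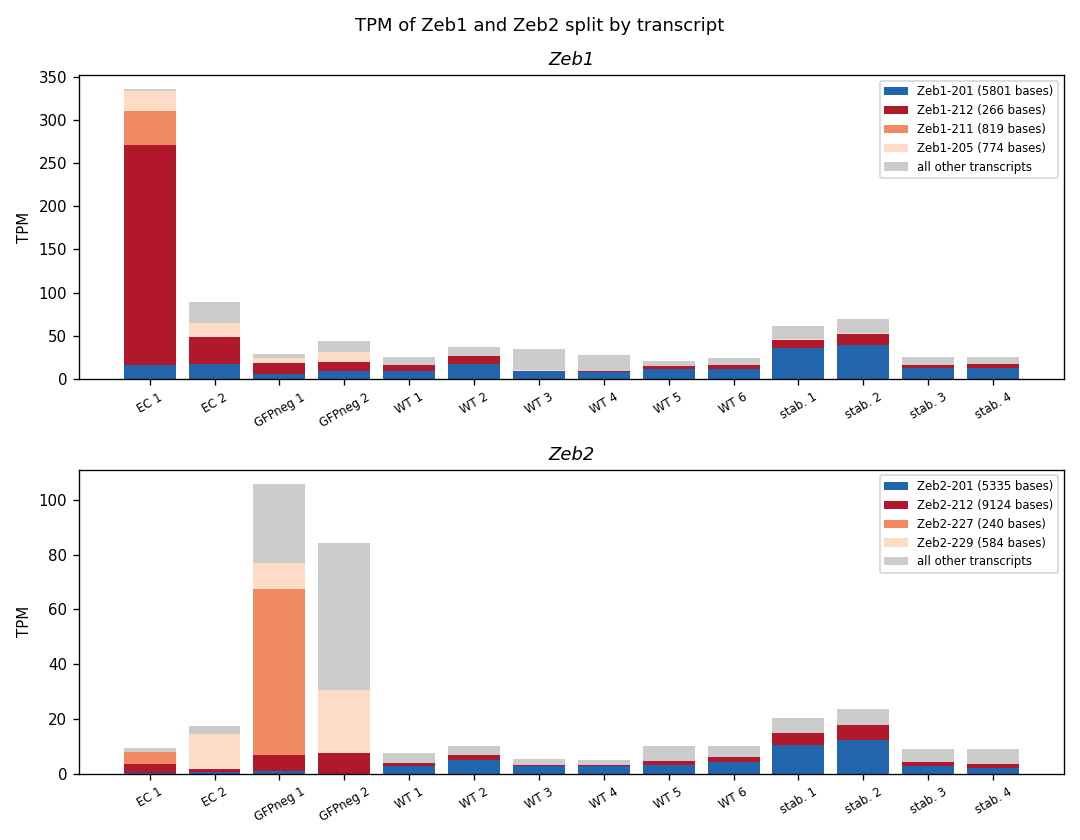
TPM of Zeb1 (top) and Zeb2 (bottom) in each RNA-seq library as stacked bars, with 4 named transcripts of each gene in colour and all others in grey. The 266-base Zeb1 transcript fills most of the bar of the first acute library, while the 5801-base coding transcript is lower than in acute ECs in 5 of 6 WT cultures and is tallest in stabilized replicates 1 and 2.

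**Figure D3:**
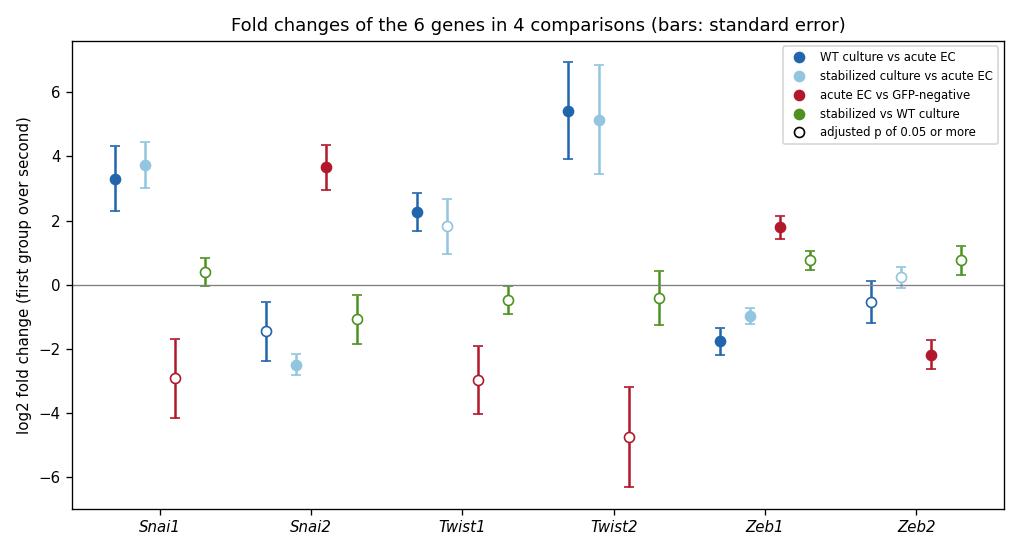
Log2 fold change of each gene in 4 comparisons by edgeR, with bars of 1 SE; filled points passed an adjusted p of 0.05 and open points did not. Snai1 and Twist2 stand above 0 and Zeb1 below 0 with filled points in both comparisons of culture with acute ECs, and every point between stabilized and WT cultures is open.

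Acute ECs were next compared with the GFP-negative cells of the same brains, which asks whether a factor is enriched in the endothelium. The fit did not pair the libraries of the same sort. Snai2 and Zeb1 were higher in ECs and Zeb2 was lower, among 15116 genes of which 9.9% were higher and 19.7% lower. Adding the fold and TPM limits left Zeb1 and Zeb2, where 8.28% of genes were higher and 7.55% lower. Snai2 was 4.98 and 10.6 TPM in ECs against 0.343 and 0.999 in GFP-negative cells, which is 3.65 on the log2 scale (SE 0.69, adjusted p = 0.0128). Zeb1 was 335 and 89.1 against 29.1 and 44.1 TPM, which is 1.79 on the log2 scale (SE 0.37, adjusted p = 0.0162), and the call was lost with the offset for transcript length (2.96, adjusted p = 0.0602), without acute EC replicate 1 (1.29, adjusted p = 0.0505) and without either GFP-negative library (1.67 and 1.93, adjusted p = 0.0784 and 0.0505). The call of Snai2 was lost without GFP-negative replicate 1 (3.34, adjusted p = 0.0545). Zeb2, an abundant factor of glia and neurons, was 106 and 84.4 TPM in GFP-negative cells, against 9.55 and 17.4 in ECs, with a log2 change of -2.18 in ECs (SE 0.45, adjusted p = 0.0170).

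Snai1 (0.460 and 0.686 TPM), Twist1 (1.09 and 1.41) and Twist2 (0.114 and 0.221) were low in GFP-negative cells, yet above both acute EC libraries in each. Their log2 fold changes in ECs were -2.91 (SE 1.23, adjusted p = 0.131), -2.97 (SE 1.05, adjusted p = 0.0824) and -4.74 (SE 1.57, adjusted p = 0.0672). None passed with 2 libraries a group. A fit of all 14 libraries together called all 6 members, where 2188 of 15777 genes were higher and 3815 lower. DESeq2 called Twist1, where 1951 of 17384 genes were higher and 3721 lower. The GFP-negative libraries also held the brain's fibroblast (121 to 145 TPM) and smooth muscle markers (3636 to 5351 TPM), and which of their cells carried these factors was not tested.

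The 3 pairs of WT wells, which differ in isolation method, mouse strain, facility and read length, differed from one another in 5 of the 6 members. Such differences were common, since 89.8% of the 13063 genes tested passed. Snai2 moved most among the Snail and Twist genes, with the 150-cycle method B pair higher than the method A pair by 3.83 on the log2 scale and the 36-cycle method B pair higher by 2.54 (edgeR quasi-likelihood F = 129, adjusted p = 2.24e-07). Snai1 differed by 2.11 and 1.74 in the same comparisons (F = 33.4, adjusted p = 5.18e-05) and Twist2 by 2.34 and -0.17 (F = 22.6, adjusted p = 0.000244). Twist1 differed by 0.23 and -0.27 and did not pass (F = 1.53, adjusted p = 0.271). In TPM, however, Twist1 averaged 3.02 in the 150-cycle pair, 0.952 in the method A pair and 0.727 in the 36-cycle method B pair. The counts of the Zeb genes were lower in the 150-cycle pair than in the method A pair, with log2 differences of -1.19 for Zeb1 (F = 63.5, adjusted p = 3.77e-06) and -1.81 for Zeb2 (F = 259.8, adjusted p = 1.85e-08), and the differences were -0.07 and 0.39 for the 36-cycle method B pair. In TPM, Zeb2 was again lowest in the 150-cycle pair, whereas Zeb1 averaged 31.6 there against 31.2 in the method A pair and 22.4 in the other method B pair. The fibroblast marker sum was also highest in the 150-cycle pair (48.4 and 53.4 TPM) among WT cultures, and its part was not tested. By the method assignment used here, both method B pairs share method and strain, and between them facility and read length cannot be told apart. Between the method A pair and the 36-cycle method B pair, method and strain cannot be told apart. Between the method A pair and the 150-cycle pair, none of method, strain, facility and read length can. Each pair was also its own experiment.

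Stabilized beta-catenin was tested between the 4 stabilized and 6 WT cultures over 12971 genes. No member passed, and no gene did (0% of all genes), although 1422 genes had an unadjusted p under 0.05 and DESeq2 called 113 genes higher and 123 lower. The closest member was Zeb1, at 61.1, 69.2, 25.5 and 24.9 TPM in stabilized replicates 1 to 4, and its log2 difference from WT was 0.77 (SE 0.29, adjusted p = 0.412). Zeb2, at 20.4, 23.7, 9.19 and 8.89 TPM, gave 0.76 (SE 0.44, adjusted p = 0.536). In 36-cycle libraries with isolation method as a term, Zeb1 passed (0.46, adjusted p = 0.0264) and Snai2 turned sign (0.32, adjusted p = 0.676). That fit called 1168 genes higher and 1109 lower of 12934. In both Zeb genes replicates 1 and 2 lay above every WT culture, whereas replicates 3 and 4 lay inside the WT range.

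Snai1 was 2.14, 2.96, 1.502 and 1.23 TPM in the stabilized replicates and differed from WT by 0.40 (SE 0.45, adjusted p = 0.741). Snai2 was 1.41, 2.63, 1.59 and 1.10 TPM, with -1.08 (SE 0.76, adjusted p = 0.601). Both stayed inside the WT range in all 4 libraries. Twist1 was 0.953, 2.11, 0.227 and 0.317 TPM (-0.47, SE 0.44, adjusted p = 0.697), with replicates 3 and 4 below every WT culture, and Twist2 was 0.470, 1.36, 0.112 and 0.0409 TPM (-0.41, SE 0.85, adjusted p = 0.867). An adjusted p above the threshold does not show that the groups were alike. In simulated data with these libraries, 96.0% of genes changed by 3 on the log2 scale were recovered in this comparison, and 9% of those changed by 1. The simulation changed only genes above a minimum mean count and drew each library independently, without pairs of wells. Its shares therefore do not measure recovery of low members such as Twist2, or recovery in wells that come in pairs.

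The members moved differently within the isolation methods. In method A, with 2 stabilized and 2 WT wells, Snai1, Snai2, Zeb1 and Zeb2 were higher in the stabilized wells, by log2 fold changes of 1.90 (SE 0.24, adjusted p = 0.000223), 1.60 (SE 0.38, adjusted p = 0.00620), 0.65 (SE 0.10, adjusted p = 0.000526) and 0.76 (SE 0.07, adjusted p = 6.0e-05). Of all 13369 genes in that fit, 29.7% were higher and 29.1% lower. Protein-coding genes held 91.8% and 91.6% of counts in the stabilized wells of method A and 70.1% and 84.4% in its WT wells. The fibroblast markers summed to 33.2 and 84.7 TPM in those stabilized wells and to 18.1 and 31.0 in the WT wells. The part of these differences was not tested. In method B, with 2 stabilized and 2 WT wells of 36 cycles, Twist1 alone passed, with -1.26 on the log2 scale (SE 0.39, adjusted p = 0.0365), where 17.8% of genes were higher and 13.5% lower. The other 5 gave 0.23 (Snai1), -0.67 (Snai2), -0.84 (Twist2), 0.27 (Zeb1) and -0.07 (Zeb2).

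The difference between methods, tested as an interaction, passed for Snai1 (-1.67 in method B relative to method A, adjusted p = 0.00249), Snai2 (-2.27, adjusted p = 0.00467), Zeb1 (-0.37, adjusted p = 0.0480) and Zeb2 (-0.84, adjusted p = 0.000347), where 49.5% of all genes passed. For Zeb1 the call was lost when any of the 8 wells but WT replicate 2 was left out (adjusted p = 0.0557 to 0.109). Without stabilized replicate 1 the interaction also passed for Twist1 (-1.81, adjusted p = 0.0101) and Twist2 (-2.99, adjusted p = 0.0229). Method A controls were C57BL/6J and method B controls Ctnnb1flex3/+;Tie2-GFP, so strain and isolation method cannot be told apart, nor can genotype and culture preparation within a method.

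**Figure D4:**
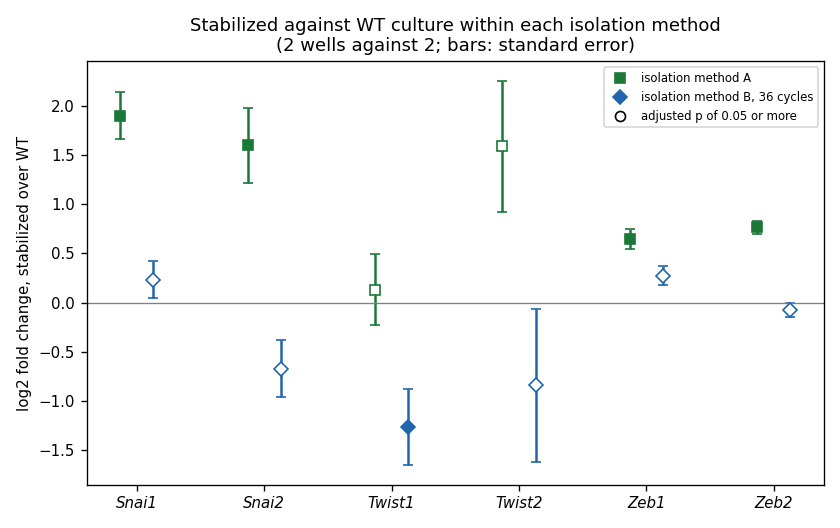
Log2 fold change of stabilized over WT cultures for each gene within method A (squares) and within method B at 36 cycles (diamonds), 2 wells against 2 each, with bars of 1 SE; filled points passed an adjusted p of 0.05. Method A points lie above those of method B in all 6 genes, and the 2 points of Snai2, Twist1, Twist2 and Zeb2 lie on opposite sides of 0.

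Stabilized cultures against the same acute ECs gave Snai1 3.74 (SE 0.72, adjusted p = 0.00500) and Twist2 5.14 (SE 1.70, adjusted p = 0.0375) higher on the log2 scale, and Snai2 -2.49 (SE 0.32, adjusted p = 0.00114) and Zeb1 -0.98 (SE 0.25, adjusted p = 0.0159) lower. Twist1 gave 1.82 (SE 0.85, adjusted p = 0.108) and Zeb2 0.23 (SE 0.34, adjusted p = 0.581). Of all 13904 genes, 28.8% were higher and 27.8% lower. With the fold and TPM limits no member passed, where 15% of genes were higher and 11% lower. The ratio of counts per protein-coding count was 14.1 for Snai1 (95% exact interval 9.27 to 22.4) and 48.1 for Twist2 (8.40 to 1923). Without acute replicate 1 the calls of Twist2 (adjusted p = 0.101) and Zeb1 (-0.59, adjusted p = 0.0931) were lost and Zeb2 was called higher (0.90, adjusted p = 0.0390), and without acute replicate 2 that of Twist2 was lost (adjusted p = 0.138). These values share the acute libraries with those of the WT cultures and are not independent of them.

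Chromatin was already open in acute ECs at the starts of every member but Twist2, and 5 regions inside Twist2 and Zeb1 were open in every culture and in neither acute library. Within 10 kb of the genes, 43 open regions (peaks of at least 2-fold enrichment and a −log10 q of at least 2, called per library by the authors and merged across libraries here) were found, 12 of them in an acute library, 42 in a WT culture and 23 in both stabilized libraries. Of the 43 regions, 5 were open in all 6 WT cultures and neither acute library, and none in both acute libraries and no WT culture, against 8.09% and 2.93% of all 126224 regions. Another 7 were open in all 8 of these libraries (13.4% of all regions), so the counts at the members were close to the background. The number of member regions rose with the number of peaks called, from 10 and 12 in acute ECs (31779 and 37384 peaks) and 12 and 18 in the method A cultures (33122 and 50395 peaks) to 26 to 35 in the method B WT cultures (84523 to 98732 peaks). Per 100000 peaks the members held 31.5 and 32.1 regions in acute ECs and 30.1 to 36.2 in WT cultures.

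The start of Snai1 (chromosome 2, 167538195, plus strand) lay in a region open in all 8 libraries, with fold enrichments of 12.9 and 9.06 in acute ECs and 7.33 to 18.9 in WT cultures. The start of Snai2 (chromosome 16, 14705852, plus strand) likewise had 16.0 and 15.0 in acute ECs and 13.5 to 15.3 in WT cultures. Snai1 RNA was near 0 in acute ECs and Snai2 RNA was not, while the enrichments at their starts overlapped between acute ECs and cultures. At Twist1 (chromosome 12, start 33957671, plus strand) the start was open at 2.99 and 3.54 in acute ECs, at 4.47 to 7.62 in 5 of 6 WT cultures and at 4.34 and 6.02 in stabilized cultures.

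Twist2 (chromosome 1, 91801461 to 91848028, plus strand) was the member with no open region in acute ECs. Its start was called in WT ATAC-seq replicates 3, 4 and 5 (3.46, 2.69 and 3.81) and in stabilized replicate 1 (3.22). Its 2 gained regions are intronic. The first, chr1:91816450-91817095, had fold enrichments of 9.66, 5.46, 13.7, 15.3, 22.7 and 23.5 in WT replicates 1 to 6 and 12.2 and 16.4 in stabilized cultures. The second, chr1:91823287-91823997, had 9.94 to 21.04 in WT and 17.2 and 19.1 in stabilized cultures, and it overlaps Gm29101, an annotated transcript inside the intron. The other 3 gained regions lie in introns of Zeb1 (chromosome 18, 5591860 to 5775467, plus strand), 18.3, 96.7 and 148.7 kb from the 5′ end of the gene, with 6.46 to 19.7, 8.39 to 15.2 and 11.9 to 23.5 in WT cultures. Without WT replicate 2, the library with the fewest peaks of the 6, gained regions numbered 8. Zeb2 (chromosome 2, 44983632 to 45117395, minus strand) had no gained region, and its kept intronic region chr2:45019066-45020402 went from 3.40 and 4.59 in acute ECs to 9.69 to 18.3 in WT and 17.0 and 16.6 in stabilized cultures.

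**Figure D5:**
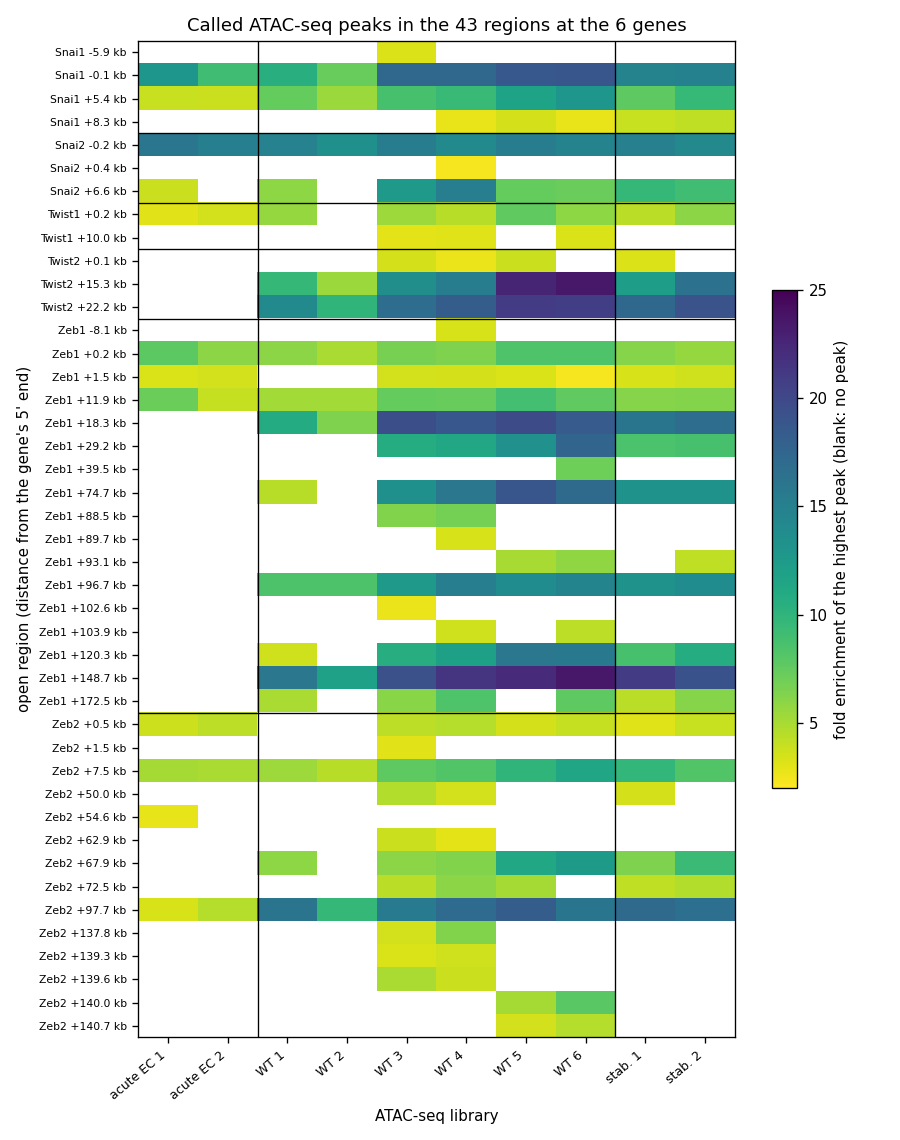
Fold enrichment of the highest ATAC-seq peak (colour) in the 43 open regions at the 6 genes; rows are regions by gene and distance from its 5′ end in kb, columns are libraries, and a blank cell has no peak. The starts of Snai1 and Snai2 are filled in every library, and the 2 gained regions of Twist2 and 3 of Zeb1 are blank in both acute ECs and filled in all 8 cultures.

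The Snai1 promoter held 1 E-box match, as did 17.3% of 32536 promoter windows, and the Twist2 promoter held none of the 4 motifs. The Twist2 gained regions held 3 and 1 AP-1 matches, where 27.6% of 125869 open regions and 52.6% of the 10207 regions gained in culture held at least 1. The 3 gained regions of Zeb1 held 1 AP-1 and 1 E-box match, 1 E-box and 1 ETS match, and 1 TEAD match. E-boxes were in 17.8%, ETS in 18.8% and TEAD in 22.0% of all open regions, and in 12.3%, 24.9% and 28.3% of those gained. The Zeb2 region held 1 E-box. A match is a description of letters, not of binding.

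The genes around the 6 factors were read from lists by role, in WT cultures against acute ECs, where 23.9% of all genes were higher and 21.3% lower. A list whose shares lie near these does not stand apart by its counts. Of 16 other regulators of mesenchymal transition, 15 were tested, 4 rose and 6 fell (median log2 -0.77, beside 0.10 over all genes). Hmga2, a chromatin protein known to induce Snai1, rose by 8.79 (SE 1.31, adjusted p = 0.00106), from at most 0.0405 TPM in acute ECs to 11.3 to 61.7 TPM. The T-box factor Tbx3 fell by 4.05 on the log2 scale (adjusted p = 8.68e-05), and Mrtfb, a serum response factor coactivator, fell by 2.73 (adjusted p = 0.000728). Of 11 factors of the epithelial state, 5 were tested and 2 fell (median -0.86). Klf4, a zinc finger factor of quiescent endothelium, fell by 6.09 on the log2 scale (adjusted p = 0.000293).

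Called members of the partner lists lay in both directions. All 20 corepressors and cofactors were tested, and 4 rose and 5 fell (median -0.12), close to the shares over all genes. Ajuba, a LIM protein that Snail proteins recruit, rose by 3.41 (adjusted p = 0.000391) and the histone deacetylase Hdac3 by 2.29 (adjusted p = 0.00443), while the nuclear receptor coactivator Ncoa1 fell by 3.73 (adjusted p = 0.000228) and the histone methyltransferase Ezh2 fell by 2.40 (adjusted p = 0.00163). Of 9 E proteins and Id proteins, the dimer partners and inhibitors of Twist proteins, 8 were tested, 1 rose and 4 fell (median -1.32). Id1 fell by 1.52 on the log2 scale (adjusted p = 0.0397) and Id3 fell by 1.43 (adjusted p = 0.0214), although the TPM of Id3 overlapped between groups (213 to 375 in acute ECs and 90.9 to 443 in WT cultures). Of 17 genes for turnover of these proteins, 15 were tested, 2 rose and 4 fell (median -0.19). The ubiquitin ligase Mdm2 rose by 1.66 (adjusted p = 0.00552), Fbxo11 fell by 1.87 (adjusted p = 0.0363) and Fbxl14 fell by 1.77 (adjusted p = 0.00871), the last with overlapping TPM.

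Of 20 TGF-beta and Notch genes, all tested, 3 were higher and 3 lower (median -0.08), below the shares over all genes. The ligands Bmp2 and Bmp4 rose by 5.85 (adjusted p = 0.00298) and 4.87 (adjusted p = 0.00177), while the co-receptor Tgfbr3 fell by 1.89 on the log2 scale (adjusted p = 0.00587) and Notch1 fell by 1.84 (adjusted p = 0.0215). Of 25 junction genes that the factors are known to repress, 20 were tested, 6 rose and 5 fell (median 0.18). Pkp2, a desmosome protein, rose by 6.99 (adjusted p = 0.000528), and the angiopoietin receptor Tek fell by 3.38 (adjusted p = 0.00119) and the tight junction scaffold Tjp1 fell by 2.72 (adjusted p = 0.000554). The vascular cadherin Cdh5 was 136 and 153 TPM in acute ECs and 136 to 295 TPM in WT cultures.

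The mesenchymal genes that such factors are known to raise had 13 of the 21 tested higher and 1 lower (median 3.44), against 23.9% and 21.3% of all genes. The WT pairs differed in these genes. The 22 genes of the list summed to 3508 and 4019 TPM in acute ECs. They summed to 4894.5 and 6302 TPM in WT replicates 1 and 2 and to 11906 to 17697 in replicates 3 to 6. Tnc, a matrix glycoprotein, rose by 11.28 (adjusted p = 0.000764), from at most 0.135 TPM to 49.0 to 198 TPM. Pdgfrb, which also marks pericytes, fell by 3.18 on the log2 scale (adjusted p = 0.00196), as one of 8 pericyte markers of 10 that fell. Between stabilized and WT cultures none of these lists had a gene that passed. Stabilized cultures against the same acute ECs had 12 of 21 mesenchymal genes higher and 2 lower, and 7 of 18 junction genes higher and 5 lower, against 28.8% and 27.8% of all genes.

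The genes most like each factor across the 14 RNA-seq libraries were named by Pearson's r of log2(TPM + 1), as a description in which libraries share group, depth and read type. Snai1 ran with Cs (r = 0.986), Vcp (0.976) and Atmin (0.975), Snai2 with Ripor1 (0.962), Flrt2 (0.954) and Nfatc1 (0.953), and Twist1 with Chpf (0.966), Rbm4b (0.951) and Dexi (0.939). Twist2 ran with Suox (0.959), Trpc4ap (0.948) and Cdc42ep1 (0.947), Zeb1 with Zfp74 (0.981), Ccdc88c (0.977) and Dpp8 (0.964), and Zeb2 with Apba1 (0.986), Cplx2 (0.981) and Zbtb18 (0.977). Among the members, Twist1 and Twist2 gave an r of 0.890, Snai1 and Twist2 0.871 and Snai1 and Twist1 0.738, while Zeb1 and Zeb2 gave 0.0899.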

How the data were processed

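RNA-seq reads had been quantified by the authors with Salmon 0.14.0 against the GENCODE M21 transcripts, and the deposited files hold expected counts and TPM per transcript. ATAC-seq peaks had been called per library by the authors with MACS2 2.1.2 on mm10 (GRCm38), and the deposited peak lists hold the ratio of fold enrichment and −log10 of p- and q-values. The estimated counts were summed per gene, rounded to whole numbers and tested with edgeR 4.0.16 in R 4.3.3 (quasi-likelihood test, TMM scaling, filterByExpr, Benjamini-Hochberg adjustment, threshold 0.05) over protein-coding genes. A second rule added a log2 change over 1 and at least 5 TPM in every library of the higher group, after the fold and TPM limits of the study, whose own calls came from EBSeq. The 6 members, the 20 gene lists and the tests were chosen with earlier results of these data known. The genes named are the members, up to 2 per list and direction with the greatest change called by both rules in WT culture versus acute ECs, and the 3 most similar genes, with TPM of at least 5. One gene that this rule names is not reported here. DESeq2 1.42.0 and limma 3.58.1 (log2(TPM + 1)) were alternatives. The tests were checked on simulated counts. Twist2 and Snai1 ratios to acute ECs carry exact 95% intervals. No replicate libraries were identical. Counts carry no strand, and the depth of ATAC-seq libraries beyond their peak numbers is unknown.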

Additional observations from a re-analysis of the deposited data

Results flagged for a closer look

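In 4 members the difference between stabilized and WT cultures itself differed between isolation methods, by edgeR's quasi-likelihood test of an interaction with Benjamini-Hochberg adjustment. The change in method B minus that in method A was -1.67 on the log2 scale for Snai1, -2.27 for Snai2, -0.37 for Zeb1 and -0.84 for Zeb2. These passed among 13369 genes of which 49.5% did, and each arm holds 2 wells. For Zeb1 the value was -0.27 (adjusted p = 0.134) when libraries were scaled by size only. No library of a group of 4 or 6 stood apart in a member by Dixon's test. Wells came in pairs, so an extreme well often had its partner close by. The test could therefore not mark a pair that stood apart together.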

How the results depend on the processing

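Of 545 values of single members under alternative settings, 486 kept direction and call, 38 lost and 14 gained the call, and 7 changed sign. The sign changes were Zeb2 in WT culture versus acute EC, 0.0945 without acute replicate 1 (-1.04 to 0.0945 with each replicate left out) and 0.0886 with method B 36-cycle cultures only; Twist2 in stabilized versus WT, 0.0593 without WT replicate 3 (-1.43 to 0.0593); Snai2 in stabilized versus WT, 0.32 in 36-cycle libraries with isolation method as a term; and Zeb2 in stabilized versus acute, -0.43 with the offset for transcript length, -0.20 without acute replicate 2 (-0.20 to 0.90) and -0.0207 with method B only. The causes were not tested.

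In WT culture versus acute EC, 4 members passed, but 1 with limma on log2(TPM + 1), 2 with the replicate number as a block, 2 with 36-cycle cultures only, 1 with the wells of each experiment summed and 1 to 4 with each replicate left out. By the rule with fold and TPM limits 1 passed, but 4 with no TPM minimum, 2 with the 150-cycle pair only, 0 with summed wells and 0 to 1 with replicates left out. In acute EC versus GFP-negative, 3 passed, but 6 in a fit of all 14 libraries and 1 to 3 with replicates left out, and by the rule with fold and TPM limits 2, but 1 with the length offset and 1 to 2 with replicates left out. Over all 15777 genes, that fit of 14 libraries passed 2188 higher and 3815 lower. In stabilized versus WT, 0 passed, but 1 in 36-cycle libraries with method as a term (Zeb1, log2 0.46, adjusted p = 0.0264 by edgeR). There 1168 genes were higher and 1109 lower of 12934. In stabilized versus acute EC, 4 passed, but 2 with the block and 3 to 4 with replicates left out, and by the rule with fold and TPM limits 0, but 1 each with DESeq2 size factors, the length offset, DESeq2, limma or method B only, 3 with no TPM minimum and 0 to 1 with replicates left out. Differences among the WT pairs passed for 5 members, but 3 in the 36-cycle experiments only. Open regions numbered 43, but 73 within 50 kb.

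Same-numbered wells of stabilized and WT cultures correlated at 0.495, 0.477, -0.0156 and 0.0519 in their deviations from the group means, so the numbers were not taken as pairing. Wells of method A correlated whatever their number, at 0.404 to 0.55 for stabilized replicates 1 and 2 with WT replicates 1 and 2. In method B, stabilized replicates 3 and 4 correlated at 0.431 to 0.542 with WT replicates 5 and 6. With WT replicates 3 and 4, also of method B, stabilized replicates 3 and 4 gave -0.0156 to 0.0556. At 2 acute libraries the simulated recovery was 42% for a log2 change of 3 in WT culture versus acute EC and 0% for 1. Low genes were not among those changed and wells were not simulated in pairs, so recovery of the low members was not measured. Leaving out replicates and counting long transcripts only were added after seeing the data for the interaction, the WT pairs and the Zeb genes.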
